A study of Mus musculus with 6 samples.

Results

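The 10 genes described here carry iron into cells, store it, pass it out again and set how much of each protein is made. They were chosen by name from textbook knowledge of iron handling (Tfrc, Trf, Steap3, Slc11a2, Fth1, Ftl1, Slc40a1, Cp, Aco1 and Ireb2) and are 10 of 32285 gene IDs in a table of RNA-seq read counts from mouse kidney. Earlier results of these data were known when the genes were chosen. All 10 passed the filter on low counts and entered the test.

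The study compared kidneys of aged mice that carry different loads of a mutation in TrnE, the gene in mitochondrial DNA that encodes the tRNA for glutamate. The high-load group held 3 kidneys with labelled loads of 75%, 75% and 80%, and the control group held 3 kidneys with labelled loads of 10%, 5% and 15%, so the controls carried the mutation too. All 6 mice were labelled as females of 100 weeks. RNA came from whole kidney, in which tubule, vessel and immune cells are mixed, and in such bulk samples fewer cells of a type and less RNA per cell cannot be told apart. The sources used here do not give the strain, the mutated base or the way the loads were measured.

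Iron circulates bound to transferrin, and cells take it up through the transferrin receptor. A reductase in the endosome turns it into the ferrous form, and a transporter carries that form into the cytosol. What is not used at once goes into ferritin, a shell of heavy and light chains, and ferroportin is the only iron exporter known in mammals. Iron regulatory proteins bind a short stem-loop, the iron-responsive element. At the start of an mRNA this binding blocks translation, and in the tail of the transferrin receptor mRNA it slows decay. An mRNA level can therefore show the tail control of the receptor but not the block on ferritin translation. In the kidney the proximal tubule reclaims filtered transferrin and iron, and mitochondria use iron for heme and for iron-sulfur clusters.

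The stem-loops of this control are written in the mRNAs of the genes measured here, and they are shown because their place, at the start or in the tail of the message, sets what the regulatory proteins do to it. The search used a C, any 5 bases, the loop CAGTGN (capitals below) and 5 bases that pair with those before the loop, with G-T pairs allowed, on the sense strand of GENCODE M21 transcripts, read 5′ to 3′ from mm10. Of the 10 genes, 4 had a match in an untranslated region, against 160 of 21866 protein-coding genes (0.732%). The genes were chosen for iron handling, so this share describes them and tests nothing. These letters can miss elements of another shape: a form of the Slc11a2 mRNA is known to hold an element in its tail and had no match. Fth1 (chr19:9982732-9982761, plus strand), Ftl1 (chr7:45459778-45459807, minus strand) and Slc40a1 (chr1:45925464-45925493, minus strand) had 1 match each, in the 5′ UTR.
Fth1: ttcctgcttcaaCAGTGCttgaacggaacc
Ftl1: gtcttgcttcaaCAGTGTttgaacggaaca
Slc40a1: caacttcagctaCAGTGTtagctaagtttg
Tfrc had 4 matches, all in the 3′ UTR on the plus strand of chromosome 16, at chr16:32631219-32631248, chr16:32631598-32631627, chr16:32631663-32631692 and chr16:32631710-32631739, in that order.
Tfrc site 1: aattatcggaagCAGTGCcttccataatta
Tfrc site 2: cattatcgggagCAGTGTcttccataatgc
Tfrc site 3: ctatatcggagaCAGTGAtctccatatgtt
Tfrc site 4: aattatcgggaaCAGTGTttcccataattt

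The 6 libraries held 17449270 to 18865997 counts. The library labelled control 2 went against its label of female: it held 3 counts of Xist, the RNA that coats the inactive X chromosome in females, against 14002 to 17028 in the other libraries, and 1110 counts of the Y-linked Ddx3y, which had 0 in every other library. The same library had 2002 CPM (read counts scaled to a common library total) summed over 5 haemoglobin and erythroid genes, against 81.7 to 330.4 CPM in the other 5. With 1 such library in 1 group, its part in a difference between the groups cannot be told apart from that of the load, so the fold change and test of each of the 10 genes are given with and without it. Other cell type markers also differed between the groups. Macrophage markers summed to 899.6 to 1708 CPM in high-load kidneys and 533.6 to 651.8 CPM in controls. Of the 12, 11 had a log2 fold change above 0, where 50.9% of all genes did, and 11 did without control 2. Csf1r went the other way, at -0.05. Without control 2 it was at -0.30, with the groups apart below. Markers of the injured tubule summed to 5874 to 12031 CPM in high-load kidneys and 2759 to 4038 CPM in controls. Proximal tubule markers, which define the main cell type of the kidney cortex and were present in every library, summed to 4822, 22991 and 12501 CPM in high-load kidneys 1 to 3 and to 20944, 23820 and 28113 CPM in controls 1 to 3. Much of this sum in high-load 2 came from Kap, which had 150, 9589 and 2955 CPM in high-load kidneys 1 to 3. Controls 1 to 3 had 5108, 4408 and 10599 CPM of it. Without Kap, a step added after seeing the data, the sums were 4672 to 13402 CPM in high-load kidneys and 15836 to 19412 CPM in controls. All 14 of these markers had a log2 fold change below 0. Every high-load kidney lay below every control for 7 of them, where 15.8% of all genes were apart below in this way. Without control 2, 13 of 14 were below 0 and 10 were apart below, where 20.8% of all genes were. Cyp2e1 was then at 0.81, with the groups apart above. Slc7a13 had 118 CPM in control 2 and no more than 1.31 CPM in any other library. Thick limb markers summed to 4747 to 5742 CPM in high-load kidneys and 6370 to 8966 CPM in controls. Of these, Umod averaged 3102 CPM in high-load kidneys and 4156 CPM in controls. With and without control 2, 4 of 6 were apart below, where 15.8% and 20.8% of all genes were. Cldn16 went the other way, with a log2 fold change of 0.43. Without control 2 it was at 0.57, with the groups apart above. The part of these shifts in the values of the iron genes was not tested.

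None of the 10 genes passed the threshold of 0.05 (edgeR's quasi-likelihood test, Benjamini-Hochberg adjusted over 15955 genes), where 3 of all genes tested did (0.0188%). At an adjusted p under 0.1, 0 of the 10 passed, where 3.2% of all genes did. Without control 2, 0 of the 10 and 0 of 16367 genes passed at 0.05, and without high-load 2, where 4.96% of genes passed, 0 of the 10 did. At an unadjusted p under 0.05, 0 members were higher and 2 were lower, Aco1 and Slc11a2, where 10.2% of all genes were lower. Without control 2 the count was 0 of 10, where 6.25% were lower. The same 2 genes were the members with every high-load kidney below every control, as were 15.8% of all genes. Without control 2, Trf joined them and 3 of 10 were apart below the controls, as were 20.8% of all genes. These shares are near their backgrounds. DESeq2 called 1 member, Aco1, where it called 10.6% of genes in either direction and 3.88% lower, and limma-voom called 0. On the genes of the edgeR test DESeq2 again called Aco1, where it called 4.01% lower. Without control 2, DESeq2 called 0 members, where it called 0.936% of genes lower and 2.65% higher. The log2 fold changes of 2 members were above 0, where 50.9% of all genes were, with a median of -0.16 over the 10 and 0.01 over all genes tested. Without control 2 those medians were -0.23 over the 10 and 0.01 over all genes. In size, 8 of the 10 log2 fold changes were under 0.5, as were 74.3% of those of all genes.

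**Figure D1:**
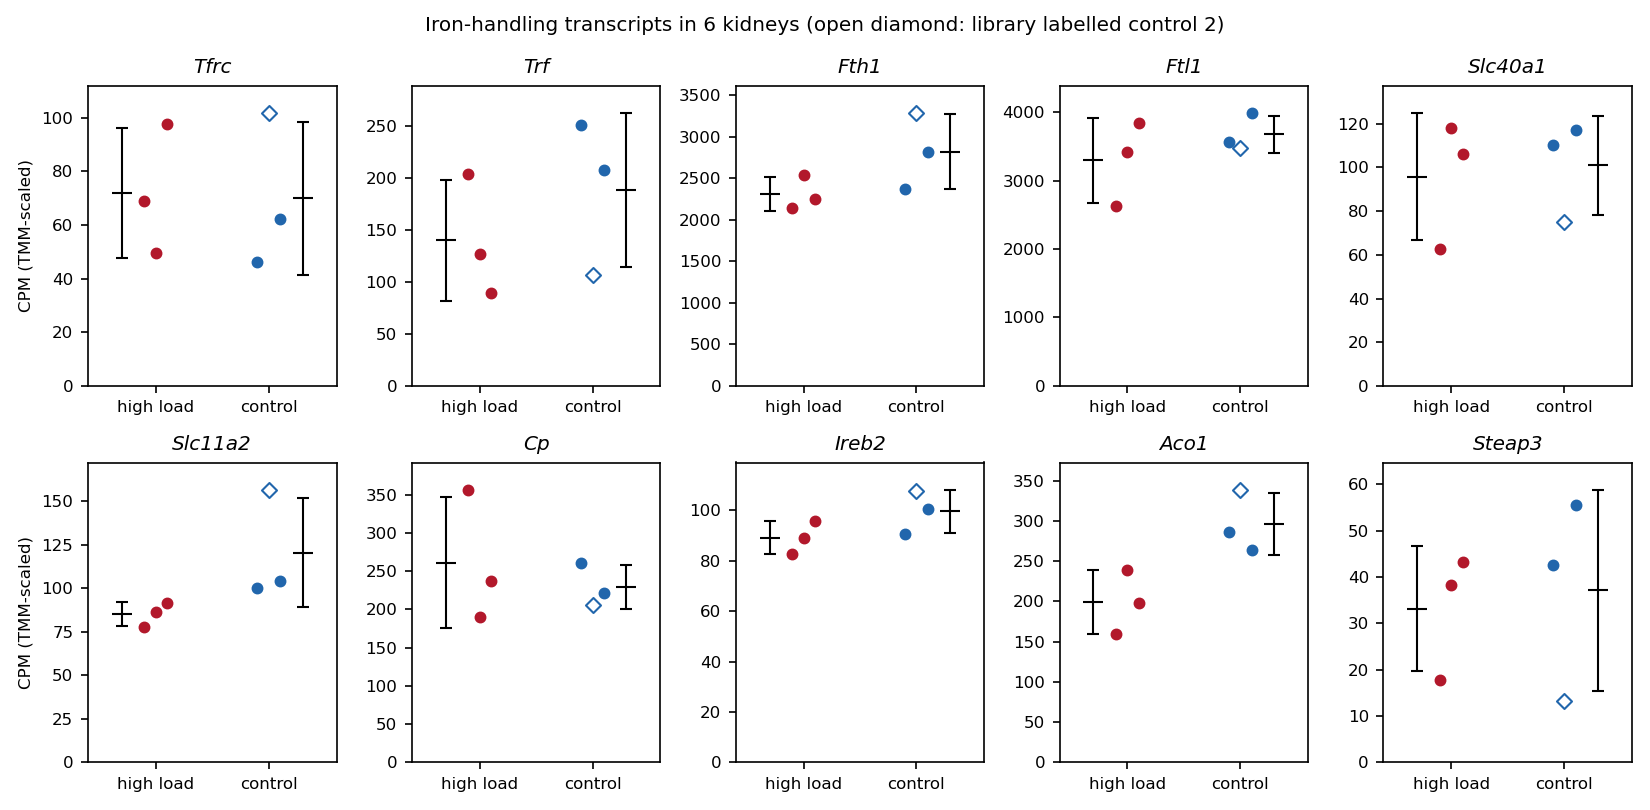
Level of each of the 10 genes in every library, in CPM after TMM scaling, on axes that start at 0. Points are kidneys, high-load left of control, bars are the mean and SD of 3, and the open diamond is the library labelled control 2. Aco1 and Slc11a2 are the panels in which all high-load points lie below all control points.

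Aco1 and Ireb2 encode the iron regulatory proteins. The Aco1 product is an enzyme, cytosolic aconitase, while it holds an iron-sulfur cluster, and binds RNA as IRP1 when the cluster is lost. The Ireb2 product, IRP2, holds no such cluster and is degraded when iron is plentiful.

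Aco1 (ENSMUSG00000028405, chr4:40143081-40198338, plus strand) had 159.9, 239 and 198 CPM in high-load kidneys 1 to 3, against 286, 339 and 264 CPM in controls 1 to 3. The highest high-load kidney lay below the lowest control, and control 2 was the highest library of all. The means were 199 ± 39.6 CPM in high-load kidneys and 296 ± 38.3 CPM in controls (SD, n = 3 each), a ratio of 0.672. The log2 fold change was -0.57 (SE 0.18, 95% interval -1.0 to -0.15), with an edgeR unadjusted p of 0.0159 and an adjusted p of 0.140. Without control 2 it was -0.47 (SE 0.19, edgeR adjusted p 0.315), and the groups were still apart. The DESeq2 adjusted p was 0.0314, with a log2 fold change of -0.58 (SE 0.19), and 0.224, with -0.48 (SE 0.22), without control 2.

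Ireb2 (ENSMUSG00000032293, chr9:54863789-54912530, plus strand) varied little, with 82.6, 89.0 and 95.5 CPM in high-load kidneys and 90.5, 108 and 100.5 CPM in controls. The groups overlapped through high-load 3 and control 1. Its log2 fold change was -0.16 (SE 0.10, 95% interval -0.40 to 0.08, edgeR adjusted p 0.365), and -0.10 (SE 0.11, adjusted p 0.645) without control 2.

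Set against each other within a library, the log2 ratio of Ireb2 to Aco1 counts was -0.95, -1.43 and -1.05 in high-load kidneys and -1.66, -1.65 and -1.40 in controls. High-load 1 and 3 lay above all controls, and high-load 2 lay just below control 3. The difference was 0.43 on the log2 scale, and 0.38 without control 2. It did not pass the exact two-sided permutation test (p = 0.2, adjusted to 0.8 over the 4 ratios computed), which cannot give a p below 0.1 with 3 against 3 kidneys.

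Iron entry was represented by 4 genes. Tfrc encodes transferrin receptor 1. Tfrc (ENSMUSG00000022797, chr16:32608920-32632794, plus strand) had 69.0, 49.6 and 97.7 CPM in high-load kidneys and 46.1, 102 and 62.3 CPM in controls. The highest library was control 2, and the groups overlapped across nearly all of their range. Means were 72.1 ± 24.2 CPM in high-load kidneys and 70.0 ± 28.6 CPM in controls (SD, n = 3 each). The log2 fold change of 0.04 had an SE of 0.35 and a 95% interval of -0.78 to 0.87 (edgeR adjusted p 0.952). Without control 2 it was 0.41 (SE 0.30, adjusted p 0.502), and leaving out high-load 3, control 1 or control 3 instead gave -0.24, -0.19 and -0.04. The direction of the Tfrc difference thus depended on single libraries.

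Trf encodes transferrin, the plasma carrier that the liver makes in bulk. Trf (ENSMUSG00000032554, chr9:103204001-103230444, minus strand) had 204, 127 and 89.6 CPM in high-load kidneys and 251, 106 and 207 CPM in controls. Control 2 lay within the high-load range, while the other controls lay above all high-load kidneys. The fitted log2 fold change was -0.42 (SE 0.39, 95% interval -1.37 to 0.52, edgeR adjusted p 0.537), and -0.71 (SE 0.34, adjusted p 0.350) without control 2. Exons of Trf overlap Gm20425 on the same strand over 2108 bases, and Gm20425 was not among the gene IDs counted. Hepatocyte markers summed to 67.3 to 156 CPM in high-load kidneys and 105.5 to 195 CPM in controls. Of the 6 tested, Alb, Apoa1 and Apoa2 were apart below the controls, where 15.8% of all genes were. Without control 2, 7 could be tested and 4 were apart below, these 3 among them, where 20.8% of all genes were. Ttr and Fgb went the other way, with positive log2 fold changes in both settings. Serpina1a had a negative log2 fold change that turned positive without control 2. For Ttr, Fgb and Serpina1a the groups overlapped in both settings. The part of the hepatocyte markers in the Trf values was not tested.

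Steap3 encodes the endosomal ferrireductase best known from red cell precursors. Steap3 (ENSMUSG00000026389, chr1:120190757-120272705, minus strand) had 17.8, 38.4 and 43.3 CPM in high-load kidneys and 42.7, 13.2 and 55.6 CPM in controls. Its lowest libraries were high-load 1 and control 2, so each group held 1 low library. The log2 fold change was -0.17 (SE 0.54, 95% interval -1.46 to 1.12, edgeR adjusted p 0.873), the widest interval of the 10. Without control 2 it was -0.57 (SE 0.38, adjusted p 0.454), and without high-load 1 it was 0.13.

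Slc11a2 encodes DMT1, which carries ferrous iron across the endosomal and apical membranes. Slc11a2 (ENSMUSG00000023030, chr15:100387898-100425072, minus strand) had 77.7, 86.4 and 91.4 CPM in high-load kidneys, against 100.5, 157 and 104 CPM in controls. All high-load kidneys lay below all controls, and control 2 stood well above the other controls. Means were 85.1 ± 6.94 CPM in high-load kidneys and 120.5 ± 31.3 CPM in controls (SD, n = 3 each). Its log2 fold change was -0.50 (SE 0.18, 95% interval -0.94 to -0.06), with an edgeR unadjusted p of 0.0311 and an adjusted p of 0.171. Without control 2 it was -0.27 (SE 0.11, adjusted p 0.311), and the groups were still apart. An exon of Slc11a2 overlaps one of Gm5475 on the opposite strand over 402 bases, and the sources used here do not say whether strand was used in counting.

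**Figure D2:**
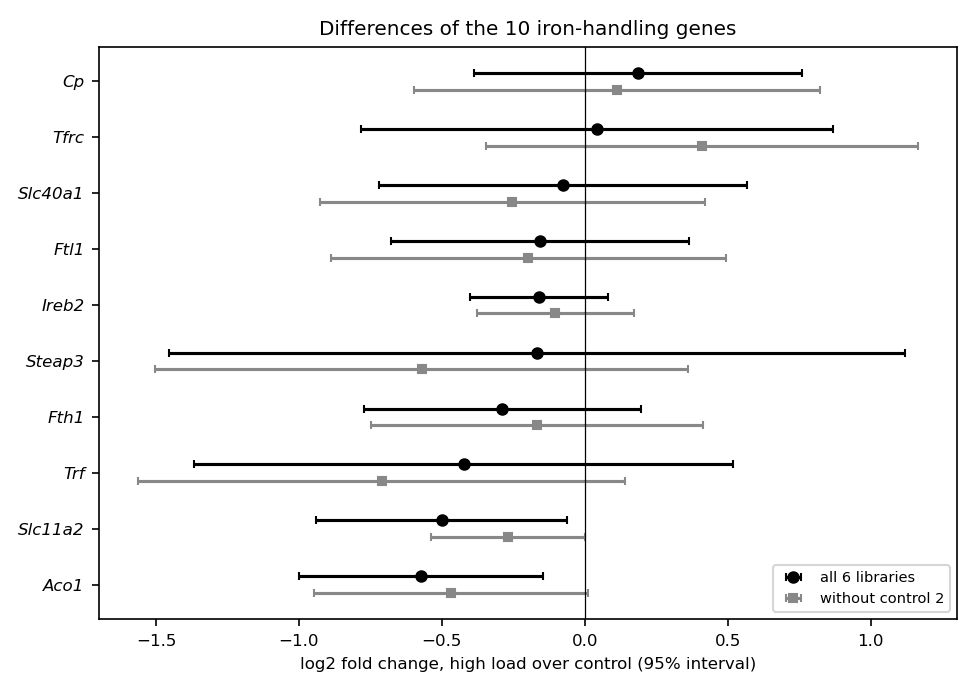
Log2 fold change, high-load over control, of each of the 10 genes with its 95% interval from edgeR, in black from all 6 libraries and in grey without the library labelled control 2. With all libraries the intervals of Aco1 (-1.0 to -0.15) and Slc11a2 (-0.94 to -0.06) lie below 0, and the points of Tfrc, Trf and Steap3 move most when control 2 is left out.

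Ferritin stores iron in a shell in which the heavy chain oxidises the metal and the light chain helps the core to form. Per kilobase of transcript, its 2 genes were the most abundant of the 10 by far. Ftl1 averaged 3403 ± 638 CPM per kilobase in high-load kidneys and 3794 ± 280.0 in controls, and Fth1 averaged 1545 ± 138 CPM per kilobase in high-load kidneys and 1887 ± 306 in controls (SD, n = 3 each). At the other end of the same scale, Steap3 averaged 6.43 ± 2.62 CPM per kilobase in high-load kidneys and 7.20 ± 4.21 in controls. Without control 2 the controls averaged 3896 for Ftl1, 1733 for Fth1 and 9.52 for Steap3 on that scale. Between these ends the groups' means for Cp, Trf and Aco1 were 52.0 to 77.3 CPM per kilobase, those for Slc40a1 and Slc11a2 28.1 to 39.8 and those for Ireb2 and Tfrc 14.3 to 17.2. Within each of these sets the ranges of mean ± SD overlapped in high-load kidneys. In controls those of Cp (56.9 ± 7.05 CPM per kilobase) and Aco1 (77.3 ± 10.0) did not. The first and second sets changed their order between the groups.

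Fth1 (ENSMUSG00000024661, chr19:9980598-9985098, plus strand), the heavy chain gene, had 2139, 2537 and 2248 CPM in high-load kidneys and 2367, 3279.7 and 2812 CPM in controls. High-load 1 and 3 lay below all controls, and high-load 2 lay above control 1. The fitted log2 fold change was -0.29 (SE 0.20, 95% interval -0.77 to 0.20, edgeR adjusted p 0.413), and -0.17 (SE 0.23, adjusted p 0.728) without control 2.

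Ftl1 (ENSMUSG00000050708, chr7:45457944-45459884, minus strand), the light chain gene, had 2624, 3416 and 3842 CPM in high-load kidneys and 3559.8, 3477 and 3982 CPM in controls. High-load 3 lay within the range of the controls, and high-load 1 was the lowest library. The log2 fold change was -0.16 (SE 0.22, 95% interval -0.68 to 0.36, edgeR adjusted p 0.688), and -0.20 (SE 0.28, adjusted p 0.732) without control 2. Ferritin genes have many processed copies in the mouse genome. Of the copies in the table, Ftl1-ps1 held 2275 counts in all, against 381958 of Ftl1, and Fthl17a to Fthl17f held 0. The sources used here do not say how reads matching several copies were counted.

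The balance of the chains, as the log2 ratio of Fth1 to Ftl1 counts, was -0.29, -0.43 and -0.77 in high-load kidneys and -0.59, -0.08 and -0.50 in controls. The groups overlapped, and control 2 had the highest ratio. The difference of -0.11 did not pass the exact two-sided permutation test (p = 0.7, adjusted 0.9), and it was 0.05 without control 2.

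Both proteins of the uptake and storage switch, the receptor and the heavy chain, are under the same regulators, but through opposite ends of the mRNA. The log2 ratio of Tfrc to Fth1 counts was -4.95, -5.68 and -4.52 in high-load kidneys and -5.68, -5.01 and -5.50 in controls. High-load 3 had the highest ratio, and high-load 2 was level with control 1 at the low end. The difference was 0.34, with p = 0.4 in the exact two-sided permutation test (adjusted 0.8), and 0.54 without control 2.

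Export was represented by 2 genes. Slc40a1 encodes ferroportin, abundant in macrophages that recycle iron and on the basolateral side of the proximal tubule. Slc40a1 (ENSMUSG00000025993, chr1:45908068-45926523, minus strand) had 62.7, 118 and 106 CPM in high-load kidneys and 110.3, 75.0 and 117 CPM in controls. High-load 1 was the lowest, and control 2 was next. Its log2 fold change was -0.08 (SE 0.27, 95% interval -0.72 to 0.57, edgeR adjusted p 0.884), and -0.25 (SE 0.27, adjusted p 0.643) without control 2. Without high-load 1 it was 0.15. Proximal tubule markers had their lowest sum in high-load 1 (4822 CPM) and summed to 23820 CPM in control 2. Macrophage markers had their highest sum in high-load 1 (1708 CPM) and their lowest in control 2 (533.6 CPM). The part of these cells in the Slc40a1 values was not tested.

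Cp encodes ceruloplasmin, a copper ferroxidase that oxidises iron as it leaves the cell. Cp (ENSMUSG00000003617, chr3:19957054-20009145, plus strand) had 356, 189.7 and 237 CPM in high-load kidneys and 261, 206 and 221 CPM in controls. High-load 1 stood above every other library, and high-load 2 was the lowest. The fitted log2 fold change was 0.19 (SE 0.24, 95% interval -0.39 to 0.76, edgeR adjusted p 0.663), and 0.11 (SE 0.29, adjusted p 0.853) without control 2. Without high-load 1 it was -0.10. An exon of Cp overlaps one of Hps3 on the opposite strand over 108 bases.

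Export set against uptake, as the log2 ratio of Slc40a1 to Tfrc counts, was -0.14, 1.25 and 0.12 in high-load kidneys and 1.26, -0.44 and 0.91 in controls. The groups spanned nearly the same range, with control 2 the lowest and control 1 the highest. The difference of -0.17 had p = 0.9 in the exact two-sided permutation test (adjusted 0.9), and it was -0.67 without control 2.

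**Figure D3:**
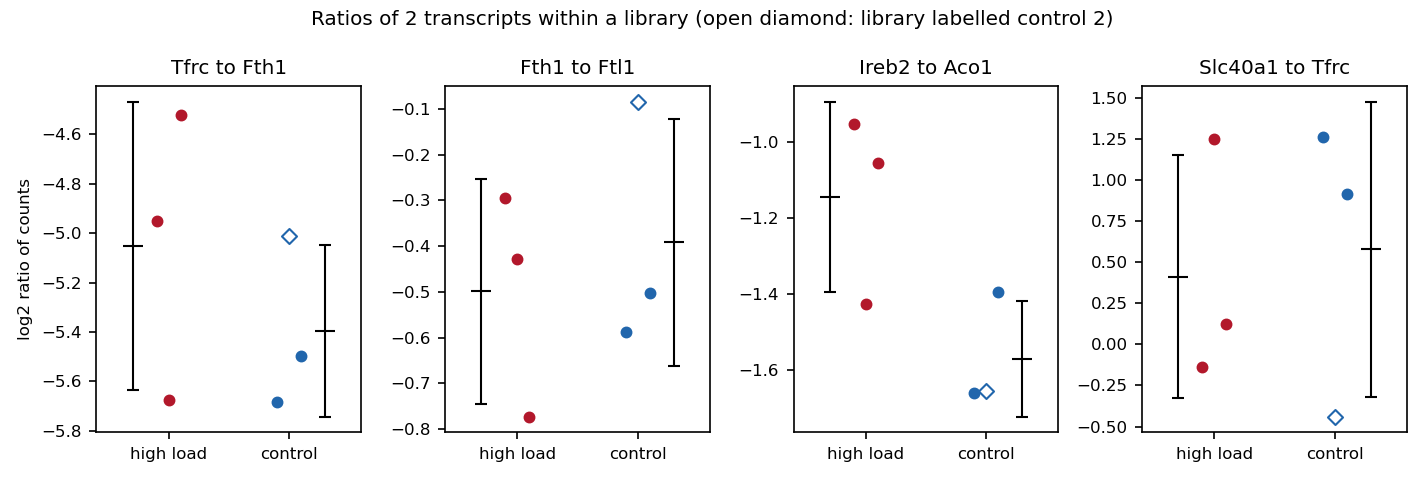
Log2 ratio of read counts within each library for 4 pairs of iron genes (Tfrc to Fth1, Fth1 to Ftl1, Ireb2 to Aco1 and Slc40a1 to Tfrc), high-load left of control. Points are kidneys, bars are the mean and SD of 3, and the open diamond is the library labelled control 2. The groups overlap in every panel.

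Single libraries stood at the ends of the range for many of the members. Within the high-load group, high-load 1 had the lowest Fth1, Ftl1, Slc40a1, Slc11a2, Ireb2, Aco1 and Steap3 and the highest Trf and Cp. It was also the library with the lowest sum of proximal tubule markers (4822 CPM) and the highest sums of macrophage (1708 CPM) and injured tubule markers (12031 CPM). The part of these cells in its iron gene values was not tested. Among the controls, control 2 had the highest Tfrc, Fth1, Slc11a2, Ireb2 and Aco1 and the lowest Trf, Ftl1, Slc40a1, Cp and Steap3. For 3 of the members, Tfrc, Steap3 and Trf, SE was over 0.3 on the log2 scale, and it was smallest for Ireb2. Scaled by library totals alone, the median log2 fold change of all genes was 0.13 and that of the 10 members -0.07.

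Beyond the 10, a list of 82 other genes of iron handling held 75 that could be tested. None passed the edgeR adjusted threshold of 0.05, with or without control 2. At an unadjusted p under 0.05, 4 were higher and 13 lower, where 14% of all genes were higher and 10.2% lower. Without control 2 these counts were 2 higher and 7 lower, where 9.84% of all genes were higher and 6.25% lower. Their median log2 fold change was -0.15, with 55 of 75 below 0, against 0.01 for all genes tested, and 49 of 75 were below 0 without control 2. DESeq2 called 7 of them. Hp and Hmox1 were higher, where it called 6.67% of all genes higher. Abcg2, Blvra, Cdc42bpa, Fech and Ncoa4 were lower, where it called 3.88% of all genes lower. Without control 2 DESeq2 called 3, Hp higher and Ncoa4 and Slc39a14 lower. In that setting it called 2.65% of all genes higher and 0.936% lower. Without control 2, each of the genes described next had a log2 fold change of the same sign as with it, and their edgeR adjusted p were 0.260 to 0.789.

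Among 12 other genes of iron entry, 1 was higher (Steap1) and 1 lower (Slc39a8) at an unadjusted edgeR p under 0.05. Of all genes, 14% were higher and 10.2% lower at that threshold. Slc39a8, which encodes a metal ion importer of the ZIP family, had 34.8, 78.1 and 63.1 CPM in high-load kidneys and 88.3, 81.2 and 132 CPM in controls. All high-load kidneys lay below all controls, with a log2 fold change of -0.78 (SE 0.32, edgeR adjusted p 0.201). Slc39a14, the related ZIP14 importer, averaged 67.5 ± 6.82 CPM in high-load kidneys and 88.8 ± 21.2 CPM in controls (SD, n = 3 each; edgeR adjusted p 0.250). Its groups overlapped through control 2 alone, and without that library they were apart (log2 fold change -0.58, SE 0.11, edgeR adjusted p 0.260).

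Of 6 tested genes for iron chaperones and ferritin turnover, 1 was lower at an unadjusted p under 0.05, where 10.2% of all genes were. That gene was Ncoa4, the receptor that delivers ferritin to lysosomes for breakdown, with 61.3, 55.5 and 55.1 CPM in high-load kidneys, against 98.7, 108 and 76.7 CPM in controls. The high-load kidneys lay close together and below every control. The log2 fold change was -0.72 (SE 0.14, 95% interval -1.05 to -0.39), and the edgeR adjusted p of 0.0946 was the smallest among the iron genes. Without control 2 it was -0.62 (SE 0.13, adjusted p 0.260). The DESeq2 adjusted p with all libraries was 0.000878. Herc2, a ubiquitin ligase gene, and Pcbp3, of the poly(rC)-binding protein family, came next in this list and had edgeR adjusted p of 0.348 and 0.624.

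Of 6 tested export genes, 1 was higher and 1 lower at an unadjusted edgeR p under 0.05. Of 8 tested genes of the hepcidin axis, 0 were higher and 1 lower. Among all genes, 14% were higher and 10.2% lower. Flvcr1, which encodes a choline and heme transporter, averaged 56.7 ± 6.29 CPM in high-load kidneys and 43.5 ± 5.03 CPM in controls, and Abcg2, an efflux pump gene of the proximal tubule brush border, averaged 203 ± 72.9 CPM in high-load kidneys and 350 ± 44.9 CPM in controls (SD, n = 3 each). In both the groups were apart, with log2 fold changes of 0.38 (SE 0.12) and -0.79 (SE 0.27) and edgeR adjusted p of 0.147 and 0.158. Flvcr2 overlapped between the groups (log2 fold change -0.73, SE 0.36, edgeR adjusted p 0.260), and without control 2 they were apart (-0.97, SE 0.34, edgeR adjusted p 0.288). In the hepcidin axis, Bmp6, the ligand that drives hepcidin in the liver, averaged 46.4 ± 13.0 CPM in high-load kidneys and 70.5 ± 11.3 CPM in controls (SD, n = 3 each; edgeR adjusted p 0.171). Bmp2 and Hfe, next in that list, had edgeR adjusted p of 0.278 and 0.345.

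The 22 genes of mitochondrial iron-sulfur clusters and iron import held 0 higher and 5 lower at an unadjusted edgeR p under 0.05. Of all genes, 14% were higher and 10.2% lower. Without control 2, 0 of the 22 were lower, where 6.25% of all genes were. Fdx1, a ferredoxin, averaged 48.7 ± 10.9 CPM in high-load kidneys and 67.2 ± 0.725 CPM in controls. Iscu, the scaffold on which clusters are built, averaged 133 ± 26.5 CPM in high-load kidneys and 186 ± 26.9 CPM in controls. In both genes every high-load kidney lay below every control (SD, n = 3 each), with log2 fold changes of -0.47 for Fdx1 and -0.48 for Iscu and edgeR adjusted p of 0.157 and 0.167.

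Of 17 heme genes, 2 were higher and 3 lower at an unadjusted edgeR p under 0.05, where 14% and 10.2% of all genes were. Fech, which inserts iron into heme, had 96.0, 126 and 110.1 CPM in high-load kidneys, against 144, 178 and 146 CPM in controls, a log2 fold change of -0.50 (SE 0.14, edgeR adjusted p 0.125). Blvra, biliverdin reductase, averaged 41.7 ± 6.29 CPM in high-load kidneys and 60.9 ± 10.5 CPM in controls (SD, n = 3 each; edgeR adjusted p 0.130). The 2 higher genes were Hp and Hmox1. Hp, haptoglobin, which binds free haemoglobin, had 65.2, 5.70 and 14.03 CPM in high-load kidneys, against 1.44, 4.80 and 1.47 CPM in controls, with most of the signal in high-load 1 (log2 fold change 3.47, SE 1.01, edgeR adjusted p 0.129). Hmox1, heme oxygenase, singled out after its values were seen, had 70.1, 38.3 and 57.4 CPM in high-load kidneys and 37.0, 31.8 and 34.6 CPM in controls (edgeR adjusted p 0.141). In these genes too the groups were apart, and macrophages, whose markers were highest in high-load 1, express Hmox1; the part of these cells was not tested.

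Of the other mRNAs known to hold iron-responsive elements, 4 could be tested. Cdc42bpa, a kinase gene, averaged 63.4 ± 1.87 CPM in high-load kidneys and 78.7 ± 5.81 CPM in controls (SD, n = 3 each; log2 fold change -0.31, SE 0.08, edgeR adjusted p 0.120). Every high-load kidney lay below every control. Epas1, which encodes the hypoxia factor HIF2-alpha, overlapped between the groups (log2 fold change -0.39, edgeR adjusted p 0.319).

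**Figure D4:**
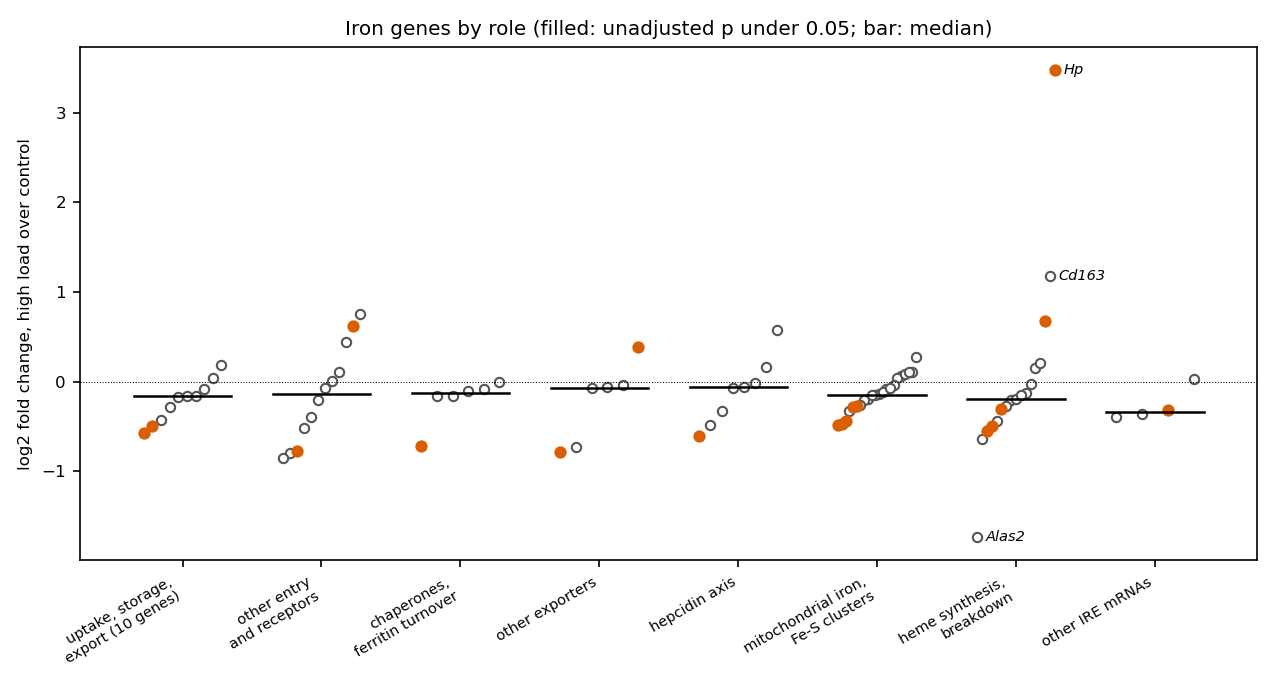
Log2 fold change, high-load over control, of the 10 genes of uptake, storage and export and of the other tested genes of iron handling, by role. Each point is a gene, filled where the unadjusted edgeR p was under 0.05, and bars are medians. Hp lies far above the rest at 3.47, and the median of each role is below 0.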

How the data were processed

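Gene counts of 6 kidneys were deposited by the authors as raw whole-number counts per Ensembl gene. Per the labels' protocols, RNA was extracted with TRIzol and libraries were made with an Illumina TruSeq kit and sequenced as 150 bp read pairs on DNBSEQ. Per the submitters' processing notes the tools were fastp 0.23.2 and featureCounts 2.0.1, with HISAT2 2.2.1 and SAMtools 1.11, on mm10. The sources used here do not give the annotation or settings. Symbols, positions and transcripts came from GENCODE M21 (32235 of 32285 IDs matched). All genes were fitted with edgeR 4.0.16 in R 4.3.3: TMM scaling, genes kept by filterByExpr (minimum count 10), a quasi-likelihood fit on group with robust estimation, and Benjamini-Hochberg adjustment over 15955 genes at 0.05. CPM values use the TMM-scaled totals. The biological coefficient of variation was 23.0%. Ratios within a library are log2 of counts + 0.5. Alternatives used DESeq2 1.42.0, limma-voom (limma 3.58.1), other scaling, filters and thresholds, and left out each library. The test was checked on simulated counts.

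Replicates are labelled as separate kidneys; chi-square per degree of freedom between libraries of a group was 21.3 to 100.5, where counting noise alone gives about 1, and p-values measure the spread between them. The members and lists were chosen with earlier results of these data known. All 10 members are named. Of each other iron list, the 3 genes with the smallest unadjusted p and any past the threshold are named, apart from items that are not reported here.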

Additional observations from a re-analysis of the deposited data

How the results depend on the processing

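No member was called by any edgeR or limma-voom alternative. DESeq2 called 1 member, both with its own filter and with edgeR's filter, the second chosen after seeing the data (Aco1, adjusted p 0.0314 and 0.0303), and 0 without control 2 (adjusted p 0.224), also added after seeing the data. Over the other alternatives the adjusted p of Aco1 was 0.0646 to 0.315. Of the other iron genes, DESeq2 called 7, DESeq2 with edgeR's filter 6, and a threshold of 0.1 called 1, against 0; leaving out 1 library gave 0 to 3 (3 without high-load 2: Abcg2, Fdx1 and Hmox1; DESeq2 without control 2 also called 3). Of all genes, where 3 were called, no filter gave 50, DESeq2 1698, DESeq2 with edgeR's filter 1704, limma-voom 0, the replicate block 1, mutation load as a number 10, a threshold of 0.1 511, DESeq2 without control 2 606, and leaving out 1 library 0 to 807, the highest without high-load 2. The median log2 fold change of the members kept its sign in all 18 alternatives (-0.27 to -0.10 with 1 library left out, -0.17 to -0.07 otherwise). With library totals Slc40a1 was at 0.017, still below the median of all genes, which that scaling moved to 0.13. With 1 library left out Slc40a1 ranged from -0.26 to 0.15, Cp from -0.10 to 0.37, Steap3 from -0.57 to 0.24, Tfrc from -0.24 to 0.41, the log2 ratio of Fth1 to Ftl1 from -0.21 to 0.046 and that of Slc40a1 to Tfrc from -0.67 to 0.17; the cause was not tested. Aco1, Slc11a2, Trf, Fth1, Ftl1 and Ireb2 were below 0 in every alternative run.

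Replicate numbers are not stated to pair the kidneys. Deviations from the group means of same-numbered libraries correlated at 0.12, -0.18 and 0.05, and those of differently numbered libraries at -0.28 to 0.31. With 3 libraries a group, these values cannot show whether the kidneys were paired. With the replicate block the log2 fold change of Aco1 was -0.58 and that of Slc11a2 -0.47, and 0 members were called. With union exon lengths, chosen after seeing the data, Ftl1 and Fth1 stayed first and second per kilobase and Steap3 last, while Ireb2 and Slc40a1 were then below Tfrc. With 3 kidneys a group, differences of the sizes seen here for single members could be missed, and a p that misses the threshold does not show that values did not differ.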

Other observations

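Hepcidin genes lay below the filter on low counts. Hamp had 1, 0 and 2 counts in high-load kidneys 1 to 3 and 1, 0 and 13 counts in controls 1 to 3. Hamp2 had 67, 0 and 1 counts in high-load kidneys and 1, 0 and 1 counts in controls, so that nearly all of its counts came from high-load 1. Alas2, the erythroid enzyme that starts heme synthesis, had 12.9, 4.18 and 3.23 CPM in high-load kidneys and 4.71, 57.1 and 6.32 CPM in controls, with the high value in the library labelled control 2. Its log2 fold change was -1.73 (SE 1.05) with that library and 0.30 (SE 0.63) without it. Fbxl5, the subunit that marks iron regulatory proteins for degradation, averaged 68.3 ± 2.30 CPM in high-load kidneys and 68.7 ± 1.51 CPM in controls (SD, n = 3 each; log2 fold change -0.01, 95% interval -0.18 to 0.16, and 0.0020 without control 2). These genes were singled out after their values were seen.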
